A study of Homo sapiens with 8 samples.

Results

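Enzymes that make pyrimidine nucleotides and the building blocks of DNA were examined at the transcript level in DLD-1 cells, a human colorectal adenocarcinoma line, after transfection with miR-143. The 9 genes were CAD, DHODH, UMPS, CTPS1, RRM1, RRM2, DUT, TYMS and TK1. They were chosen as a pathway, but with earlier results of these data known. Every probe set (a group of short probes for the same transcript) annotated to a single gene of this list was taken, which gave 22 of 41091 such probe sets and 9 of 19752 genes. In the miR-143 group 4 cultures were given the duplex of miR-143 at 50 nM, and in the mock group 4 cultures went through transfection without it, with RNA taken at 24 h from both. All 8 cultures were transfected with Lipofectamine 2000 and were of the same line, and each was measured on its own HG-U133 Plus 2.0 array. Since mock cultures got no duplex, an effect of miR-143 and one common to any duplex cannot be told apart here. The replicates were biological according to the study's methods. Levels are log2 values after RMA, on which an array median lay between 7.15 and 7.24.

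Pyrimidine rings are built de novo by CAD, DHODH and UMPS, which together yield uridine monophosphate, and CTPS1 turns the uridine form into the cytidine form. Ribonucleotide reductase, made of the large subunit RRM1 and the small subunit RRM2, reduces ribonucleotides to deoxyribonucleotides. DUT removes dUTP and leaves dUMP, TYMS methylates dUMP to thymidylate, and TK1 makes thymidylate by another route, from thymidine. Several of these genes are switched on as cells enter S phase, and fluorouracil, long used against colorectal cancer, acts in large part through TYMS. UMPS also joins fluorouracil to a sugar phosphate.

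The transfected microRNA and promoter words of some of the genes are shown first. RefSeq gives the mature miR-143-3p at chr5:149428978-149428998 on the plus strand of GRCh38.p14, and the capitals mark its seed, bases 2 to 8, by which it finds targets. It is shown because it is the agent that the groups differ in.
hsa-miR-143-3p: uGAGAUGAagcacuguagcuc

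Promoters of RefSeq, from 250 bases before to 50 bases after a gene's start, were searched on both strands for an E2F word (TTTCGCGC, TTTCGCGG, TTTGGCGC or TTTGGCGG), for CCAAT and for CCGGAAG, since E2F, CCAAT-binding (NF-Y) and ETS factors, which bind such words, act on many genes of growing cells. All 9 genes had a promoter in the table, 15 in all. The E2F word was found in 1 of the 15, that of DUT, against 2.19% of all 35116 promoters. CCAAT was found in 6 of the 15, those of CAD, DHODH, RRM1, RRM2 and TK1, against 34.6% of all, and CCGGAAG in 2 overlapping ones of RRM2, against 10.3%. Words of different kinds did not overlap in these promoters. A match is a description of the letters only, and its part in the levels was not tested. The sites shown, with the word in capitals, are the E2F word of DUT and the repeated CCAAT words of RRM2 and TK1, all in GRCh38.p14, read along the gene. The word of TK1 lies on the opposite strand and reads ATTGG.
DUT, chr15:48332159-48332188, plus strand: gaaatttcggtTTTGGCGCgctccctgcgg
RRM2, chr2:10122605-10122631, plus strand: gcaaggcgcagCCAATgggaagggtcg
RRM2, chr2:10122635-10122661, plus strand: gcatggcacagCCAATgggaagggccg
RRM2, chr2:10122662-10122688, plus strand: gggcaccaaagCCAATgggaagggccg
TK1, chr17:78187114-78187140, minus strand: gccgggcgctgATTGGccccatggcgg
TK1, chr17:78187083-78187109, minus strand: gccggctcgtgATTGGccagcacgccg

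Markers of the colorectal epithelium were checked on the same arrays. Of 11 such markers 10 lay above the median gene level of 7.56, among them EPCAM at 13.6 and KRT18 at 14.65, while LGALS4 lay at 7.12. VIL1 at 7.6 and CDX1 at 7.73 were only just above it. Above the median gene level also lay 1 of 5 fibroblast markers (the list ran from 6.86 to 8.14), 0 of 3 leukocyte markers (6.81 to 7.35) and 1 of 3 endothelial markers (6.7 to 7.61). The arrays numbered 4 differed from the rest in both groups. In a principal component analysis, whose leading component took 66.9% of the variance, they scored 25.7 (miR-143) and 26.7 (mock) on it and the other 6 arrays −18.8 to −4.3. The values of the 9 genes are therefore also given without replicate 4 of both groups.

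No enzyme gene of the list was called different between miR-143 and mock when each was represented by its brightest probe set. With limma, 0 of 9 genes passed an adjusted p of 0.05, where 0% of all genes did, and at an unadjusted p under 0.05 also 0 of 9 were lower, where 1.7% of all genes were. UMPS had the lowest unadjusted p of the 9, 0.0584 (adjusted p = 1 from limma). The miR-143 arrays lay below all mock arrays in 0 of 9 genes, against 1.24% of all genes. Between miR-143 and mock the log2 fold change (miR-143 over mock throughout) was negative for 8 of the 9, with a median of −0.11, against 55.6% of all genes and a median of −0.0091. All 8 lay between −0.17 and −0.02, and the exception was CTPS1 at 0.019. Changes of this size correspond to a fold between 0.89 and 1.01.

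The labels give the arrays of both groups the numbers 1 to 4, and with the number as a block, so that arrays of the same number are compared, limma still called 0 of 9 genes, against 0.79% of all genes. At an unadjusted p under 0.05 this comparison gave 4 lower genes of 9, UMPS, RRM2, DUT and TYMS, against 6.92% of all genes. UMPS, RRM1, DUT and TYMS were lower in all 4 same-numbered pairs, 4 of 9 genes against 10.9% of all. That count includes near-ties, with −0.0018 for UMPS in number 2 and −0.016 for RRM1 in number 3. RRM2, not counted, had 0.007 in number 2. Adjusted p-values with the block ran from 0.215 for TYMS to 0.97 for CAD. The labels do not say what a number stands for, and in the data the arrays numbered 1 and 2 were more like an array of another number than like that of their own.

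**Figure D1:**
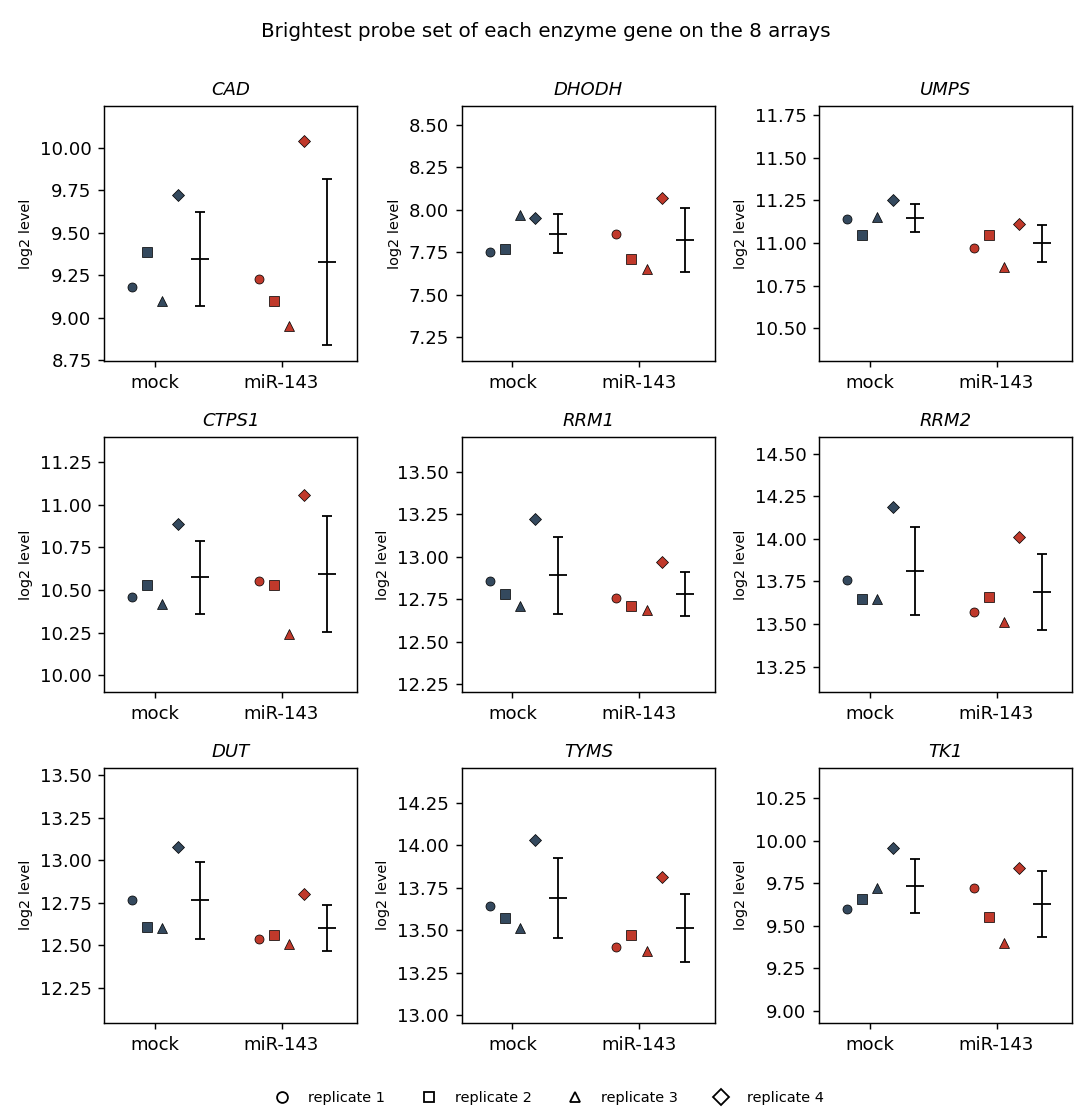
Log2 level of the brightest probe set of each of the 9 genes on the 4 mock (dark) and 4 miR-143 (red) arrays, with a marker shape for each replicate number and the mean and SD beside the points; every panel spans 1.5 log2 units. The groups overlap in every panel, and replicate 4 is the highest miR-143 array for all 9 genes and the highest mock array for 8.

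The negative sign was shared with bright genes in general. Over all genes the median log2 fold change went from 0.0034 for the 11781 genes below a level of 8 to −0.02 between 8 and 10, −0.055 between 10 and 12 and −0.085 for the 656 genes at 12 or more, of which 93.4% were negative. In the lower classes 47.6% (below 8), 60.3% (8 to 10) and 75% (10 to 12) were negative. RRM1 at −0.11, RRM2 at −0.13, DUT at −0.17 and TYMS at −0.17 belong to the brightest of these classes. UMPS at −0.15 and CTPS1 at 0.019 belong to the class between 10 and 12. TK1 at −0.11 and CAD at −0.02 belong to that between 8 and 10, and DHODH at −0.035 to the dimmest. When the arrays were brought together by cyclic loess, which removes a trend of difference with level between arrays, the median at 12 or more became 0.0045 and that of the 9 genes −0.03. After cyclic loess the log2 fold change was −0.091 for UMPS, −0.083 for DUT, −0.077 for TYMS and −0.071 for TK1. It was −0.03 for RRM2, −0.027 for DHODH and −0.023 for RRM1, while CAD had 0.012 and CTPS1 0.072. Thus 7 of the 9 genes were negative after cyclic loess, against 47.9% of all genes. Without mock replicate 4 the median of the 9 genes was −0.006 and that of all genes at 12 or more was 0.027. Without replicate 4 of both groups these medians were −0.11 and −0.065, and 9 of 9 genes were negative, against 58.3% of all. How far the shift with level takes part in the values of the 9 genes was not tested beyond these comparisons.

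**Figure D2:**
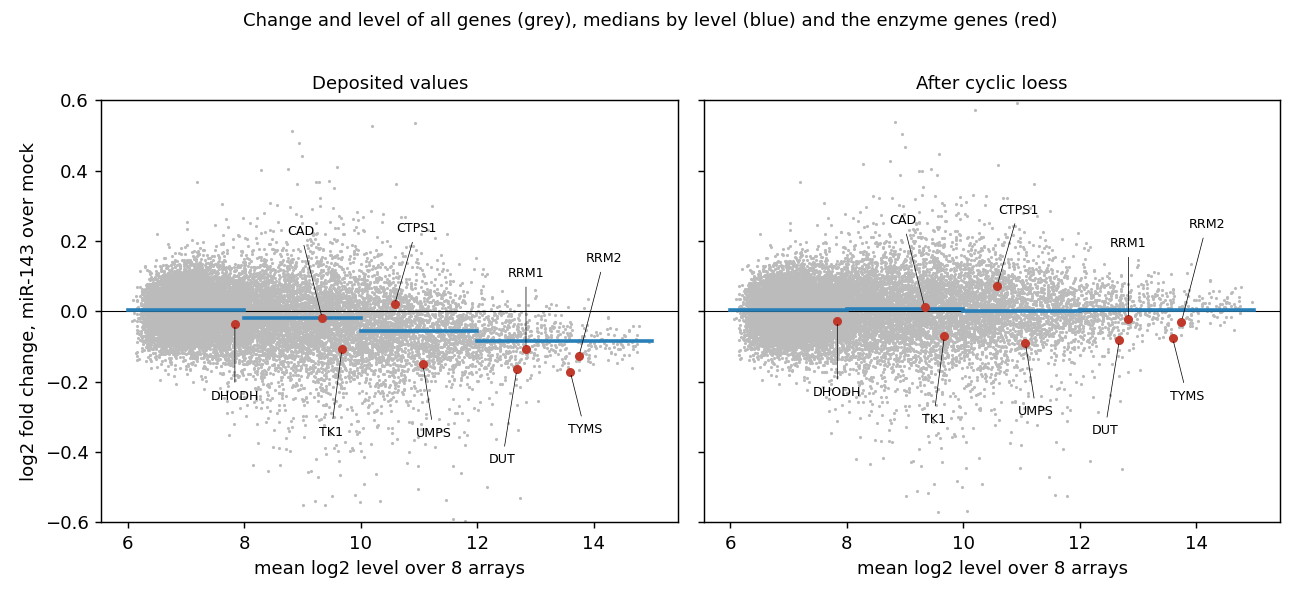
Change on the log2 scale, miR-143 over mock, against the mean log2 level for all genes (grey), with the median in 4 level classes (blue) and the 9 enzyme genes (red), for the deposited values and after cyclic loess; 10 and 8 genes beyond 0.6 in either direction are not drawn. In the deposited values the blue medians fall from 0.0034 to −0.085 with rising level. The red points at the right, at a level of 12 or more, lie below the blue median there, at −0.17 to −0.11. After cyclic loess the blue medians lie between 0.00077 and 0.0051.

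Among the enzymes of the de novo route the values of UMPS were the most even between arrays, and those of CAD the least. CAD, a single protein that holds the opening activities of pyrimidine synthesis, had log2 levels of 9.23, 9.1, 8.95 and 10.04 in miR-143 replicates 1 to 4 and of 9.18, 9.39, 9.1 and 9.72 in mock. The groups overlapped widely, and replicate 4 was the highest array of both. The means were 9.33 ± 0.49 (SD, n = 4) and 9.35 ± 0.28 (SD, n = 4), with a log2 fold change of −0.02 (95% interval −0.53 to 0.49, adjusted p = 1 from limma). Replicate 4 exceeded the mean of the others by 0.95 with miR-143 and by 0.5 in mock, more than for any other of the 9 genes in the miR-143 group. Without replicate 4 of both groups the log2 fold change of CAD was −0.13 (adjusted p = 0.92 from limma), with mock replicate 4 alone left out it was 0.1, and with miR-143 replicate 4 alone left out −0.26, so its sign rested on single arrays.

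DHODH, the mitochondrial enzyme that oxidises dihydroorotate, lay close to the median gene level on its brightest probe set. Its log2 levels were 7.86, 7.71, 7.65 and 8.07 with miR-143 and 7.75, 7.77, 7.97 and 7.95 in mock. The miR-143 arrays held both the lowest and the highest value. DHODH had a log2 fold change of −0.035 (95% interval −0.26 to 0.19, adjusted p = 1 from limma). With the block the interval of DHODH was −0.19 to 0.12 (adjusted p = 0.931 from limma), and without replicate 4 of both groups the log2 fold change was −0.089. Without mock replicate 3 alone it was 0.00066. The other probe sets of DHODH had −0.074 and −0.0055.

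UMPS, which carries out the last steps to uridine monophosphate, had log2 levels of 10.97, 11.05, 10.86 and 11.11 with miR-143 and of 11.14, 11.05, 11.15 and 11.25 in mock. In replicate 2 both arrays lay at 11.05, and in the other pairs the difference of miR-143 from mock was −0.29 to −0.14. The groups overlapped, as miR-143 replicate 4 at 11.11 lay above mock replicate 2. The log2 fold change was −0.15 (95% interval −0.31 to 0.0065, adjusted p = 1 from limma) without the block and had an adjusted p of 0.393 with it. Without replicate 4 of both groups it was again −0.15 (adjusted p = 0.809 from limma). A further bright probe set of UMPS gave −0.11, lower in all 4 pairs, though by only −0.0047 in replicate 2. The dim probe sets of UMPS, at mean levels of 7.22 and 6.99, gave 0.041 and 0.029. The brightest probe set is of the kind (marked x by the maker) in which some probes can also bind other transcripts.

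CTPS1, which aminates UTP to CTP, had a single probe set, with log2 levels of 10.55, 10.53, 10.24 and 11.06 with miR-143 and of 10.46, 10.53, 10.42 and 10.89 in mock. The miR-143 arrays lay on both sides of the mock arrays, with the lowest value in replicate 3 and the highest in replicate 4. The means were 10.59 ± 0.34 (SD, n = 4) and 10.57 ± 0.21 (SD, n = 4), a log2 fold change of 0.019 (95% interval −0.35 to 0.39, adjusted p = 1 from limma). With the block the interval was −0.12 to 0.15. Its sign turned without replicate 4 of both groups, to −0.032.

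Both subunits of ribonucleotide reductase had negative log2 fold changes on each of their probe sets, and neither was called. RRM1, the large subunit with the catalytic and regulatory sites, had log2 levels of 12.76, 12.71, 12.69 and 12.97 with miR-143 and of 12.86, 12.78, 12.71 and 13.22 in mock. Each miR-143 array was below the mock array of its number, with differences of −0.25 to −0.016, while replicate 4 with miR-143 lay above mock replicates 1 to 3. For RRM1 the log2 fold change was −0.11 (95% interval −0.36 to 0.15, adjusted p = 1 from limma), and it was 0.0011 without mock replicate 4 and −0.062 without replicate 4 of both groups. With the block the interval of RRM1 was −0.22 to 0.0099 (adjusted p = 0.576 from limma). The other probe set of RRM1 had −0.18, with levels of 10.56 to 11.12 with miR-143 against 10.86 to 11.09 in mock.

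RRM2, the small subunit that carries the tyrosyl radical and whose amount follows S phase, had log2 levels of 13.57, 13.66, 13.51 and 14.01 with miR-143 and of 13.76, 13.65, 13.65 and 14.19 in mock. Replicate 2 was level in both groups, and the difference of miR-143 from mock was −0.2 to −0.14 in the other pairs. For RRM2 the log2 fold change was −0.13 (95% interval −0.45 to 0.19, adjusted p = 1 from limma) without the block, and with it the interval was −0.24 to −0.011 (adjusted p = 0.462 from limma). Its other probe set gave −0.17 and was lower in all 4 pairs. Without mock replicate 4 the brightest probe set of RRM2 had −0.0025, and without replicate 4 of both groups it had −0.11 (adjusted p = 0.887 from limma).

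TYMS, the enzyme that fluorouracil blocks, showed the same small offset on its bright probe sets. Its log2 levels were 13.4, 13.47, 13.38 and 13.81 with miR-143 and 13.64, 13.57, 13.51 and 14.03 in mock. Each miR-143 array lay below the mock array of the same number, with differences of −0.24, −0.1, −0.13 and −0.22, but miR-143 replicate 4 was above mock replicates 1 to 3. The means were 13.51 ± 0.2 (SD, n = 4) and 13.69 ± 0.23 (SD, n = 4), so that the difference was smaller than the spread within a group. The log2 fold change was −0.17 (standard error 0.13, 95% interval −0.46 to 0.12, adjusted p = 1 from limma), which is a fold of 0.89 with an interval from 0.72 to 1.09. With the block the interval was −0.28 to −0.062 (adjusted p = 0.215 from limma). Leaving out replicate 4 of both groups gave −0.16 (adjusted p = 0.704 from limma), and leaving out mock replicate 4 alone gave −0.058.

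The other probe sets of TYMS pointed the same way. The one with a mean level of 12 had log2 levels of 11.94, 11.82, 11.68 and 12.25 with miR-143 and 12.02, 12.01, 11.91 and 12.37 in mock, a log2 fold change of −0.16, and was lower in all 4 pairs. The dim one, with a mean level of 7.22 near the array median, had 7.21, 7.2, 7.08 and 7.19 with miR-143 and 7.3, 7.26, 7.28 and 7.25 in mock, so the groups did not overlap although the log2 fold change was only −0.1 (adjusted p = 1 from limma). Probe sets with little or no signal also lie near the array median.

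TK1, the salvage enzyme for thymidine in the cytosol, had log2 levels of 9.72, 9.55, 9.4 and 9.84 with miR-143 and of 9.6, 9.66, 9.72 and 9.96 in mock. Replicate 1 was higher with miR-143 and the other pairs lower, with the widest gap in replicate 3. TK1 had a log2 fold change of −0.11 (95% interval −0.35 to 0.14, adjusted p = 1 from limma). With the block the interval of TK1 was −0.25 to 0.038 (adjusted p = 0.668 from limma). Without replicate 4 of both groups the log2 fold change was −0.1, but it was −0.032 without mock replicate 4 alone and −0.031 without miR-143 replicate 3 alone. The other probe set of TK1 had the widest spread among the pairs of all 22, from −1.01 in replicate 3 to 0.42 in replicate 1, around a log2 fold change of −0.14.

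**Figure D3:**
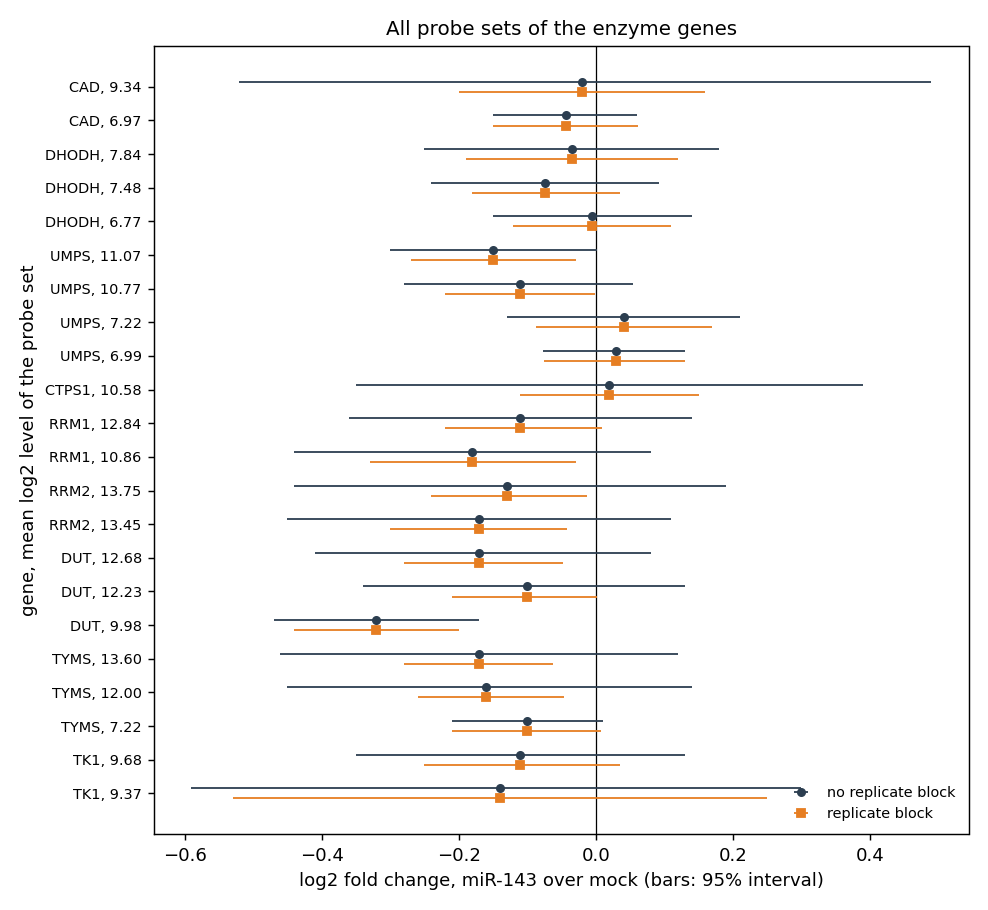
Change on the log2 scale, miR-143 over mock, of all 22 probe sets, labelled by gene and mean log2 level, with 95% intervals from limma without the replicate block (dark circles) and with it (orange squares). Of the 15 probe sets with a mean level of 9 or more 14 lie left of 0, and the DUT probe set at 9.98 is the farthest left, at −0.32.

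Over the 22 probe sets limma called 0 at an adjusted p of 0.05 without the block, where 0.00243% of the 41091 probe sets were called, and 1 was lower at an unadjusted p under 0.05, against 1.86%. In 2 of the 22, the dim one of TYMS and a probe set of DUT, all miR-143 arrays lay below all mock arrays, against 1.25% of all probe sets. With the block limma called 1 of 22 lower, the same probe set of DUT, against 0.416% of all.

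DUT, which keeps uracil out of DNA, was measured by 3 probe sets that did not give the same size of difference. The brightest, 208956_x_at, had log2 levels of 12.54, 12.56, 12.51 and 12.8 with miR-143 and of 12.77, 12.61, 12.6 and 13.08 in mock. The groups overlapped only through replicate 4 with miR-143, and the log2 fold change was −0.17 (95% interval −0.42 to 0.085, adjusted p = 1 from limma, and 0.297 with the block). It was −0.062 without mock replicate 4 alone and −0.13 without replicate 4 of both groups. The next, 209932_s_at, had 12.18, 12.09, 12.01 and 12.42 with miR-143 and 12.3, 12.16, 12.16 and 12.5 in mock, a log2 fold change of −0.1. Both are of kinds that can share probes with other transcripts or transcript forms.

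The remaining probe set of DUT, 208955_at, had log2 levels of 9.76, 9.82, 9.8 and 9.89 with miR-143 and of 10.16, 10.05, 10.04 and 10.31 in mock. All 4 miR-143 arrays were lower than every mock array, replicate 4 included. The means were 9.82 ± 0.06 (SD, n = 4) and 10.14 ± 0.12 (SD, n = 4), a log2 fold change of −0.32 (standard error 0.069, 95% interval −0.47 to −0.17, unadjusted p = 0.000991, adjusted p = 0.652 from limma over all probe sets). With the block the adjusted p from limma was 0.0249. That call ended with each of the 4 pairs left out (adjusted p = 0.0557 to 0.157) and after cyclic loess with the block (log2 fold change −0.28, adjusted p = 0.0527 from limma). Without mock replicate 4 the log2 fold change was −0.26, and without replicate 4 of both groups −0.29 (adjusted p = 0.129 from limma).

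The gap between probe sets of DUT within each array is given as a description, because 208955_at had already been seen to stand apart. For that reason no conclusion is drawn from an exact permutation test of the gaps (adjusted p = 0.0858 to 0.286). With 4 arrays in a group, the smallest unadjusted p this permutation test can give is 0.0286. The gap of 209932_s_at over 208955_at was at that floor. The log2 difference of 209932_s_at over 208955_at was 2.43, 2.27, 2.21 and 2.53 with miR-143 and 2.14, 2.11, 2.12 and 2.19 in mock. The miR-143 arrays thus all lay above the mock arrays, with means 0.22 apart. The gap of 208956_x_at over 208955_at was 0.15 wider on average with miR-143, with overlap between the groups, and that of 208956_x_at over 209932_s_at differed by −0.063. Which transcript forms the probe sets read was not analysed here.

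**Figure D4:**
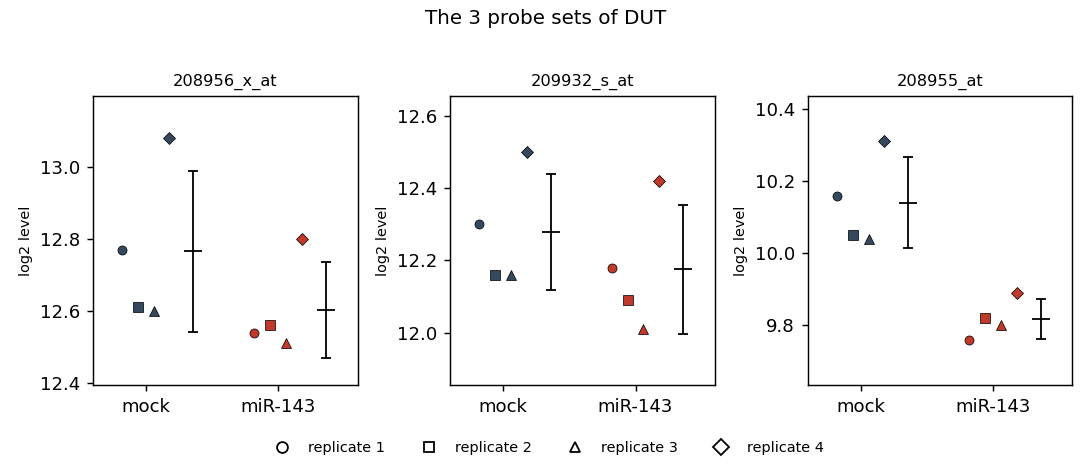
Log2 level of the 3 probe sets of DUT on the 4 mock (dark) and 4 miR-143 (red) arrays, with a marker shape for each replicate number and the mean and SD beside the points; each panel spans 0.8 log2 units. The groups overlap for 208956_x_at and 209932_s_at and are apart for 208955_at, with 9.76 to 9.89 against 10.04 to 10.31.

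Genes that work beside these enzymes were taken from lists of related steps, and limma called 0 of their measured genes without the block and 0 with it, against 0% and 0.79% of all genes. At an unadjusted p under 0.05 without the block, 1 gene each was lower in pyrimidine salvage, in the folate cycle and among S phase markers, and 0 in the other 4 lists, with 0 higher in any of the 7, where 1.7% of all genes were lower. With the block, unadjusted, the lower genes were 6 of 17 S phase markers, 3 of 12 in purine synthesis, 3 of 9 in pyrimidine breakdown, 2 of 11 in salvage, 2 of 9 in the folate cycle, 1 of 9 among reductase partners and 0 of 7 in CTP and nucleoside diphosphate synthesis, where 6.92% of all genes were. Unadjusted calls with the block were thus also found outside the 9 enzymes, and whether the lists differ was not tested. The share of 6.92% covers genes of all levels, 11781 of them below 8, and was not matched to the levels of the lists. All S phase markers except E2F1 lay at about 10 or higher. Over all genes the medians were −0.055 between 10 and 12 and −0.085 at 12 or more. Of 11 measured genes of pyrimidine salvage 9 were negative, with a median of −0.047. UPRT, named for uracil phosphoribosyltransferase, had the lowest p there without the block, at 8.13 ± 0.1 (SD, n = 4) against 8.31 ± 0.1 (SD, n = 4). Its log2 fold change was −0.18 (limma, adjusted p = 1 without the block and 0.186 with it). UPP2, a uridine phosphorylase, had 0.062, with means of 6.89 with miR-143 and 6.83 in mock, below the array medians. DCTD, which deaminates dCMP to the dUMP that TYMS uses, is named after its values were seen. Its log2 levels were 9.55, 9.4, 9.16 and 10.05 with miR-143 and 9.76, 9.9, 9.8 and 10.19 in mock, lower in each pair though the groups overlapped through replicate 4. Its log2 fold change was −0.37 (standard error 0.17, adjusted p = 1 from limma without the block and 0.0572 with it).

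Of 9 measured partners of ribonucleotide reductase and enzymes of deoxynucleotide breakdown 8 were negative, with a median of −0.085. GLRX, a glutaredoxin that can pass electrons to the reductase, lay at 10.41 ± 0.01 (SD, n = 4) after miR-143 and at 10.5 ± 0.07 (SD, n = 4) after mock transfection, a difference of −0.09, and RRM2B, the small subunit induced by p53, had 0.01 (adjusted p = 1 for both from limma, and 0.628 and 0.98 with the block). In the folate cycle, which supplies the methyl group for TYMS, 6 of 9 were negative, with a median of −0.045. MTHFD2L, a mitochondrial folate enzyme, had a log2 fold change of −0.22 and FPGS, which adds glutamates to folates, one of 0.07 (adjusted p = 1 for both from limma, and 0.248 and 0.838 with the block). Of the other genes of CTP and nucleoside diphosphate synthesis 2 of 7 were negative, with a median of 0.032, or 0.0035 without replicate 4 of both groups. They ran from −0.076 for the kinase NME1 to 0.077 for the UMP-CMP kinase CMPK1.

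Of 9 genes of pyrimidine breakdown and nucleotidases 8 were negative, with a median of −0.077. UNG, the glycosylase that cuts uracil out of DNA, had 10.18 ± 0.16 (SD, n = 4) against 10.39 ± 0.12 (SD, n = 4), a log2 fold change of −0.21 (limma, adjusted p = 1 without the block and 0.117 with it), and UPB1 had 0.055. Purine synthesis had 8 of 12 negative and a median of −0.082. ADSS1 at 0.12 and ADSL at −0.1 are named there for their p without the block, not as the ends of the list. The lowest value was that of PPAT, −0.22, or −0.0054 without mock replicate 4. Of 17 S phase markers 14 were negative, with a median of −0.1. CCNE2, a cyclin of S phase entry, lay at 9.93 to 10.06 with miR-143 and at 10.11 to 10.3 in mock without overlap, a log2 fold change of −0.2 (limma, adjusted p = 1 without the block and 0.184 with it), while its relative CCNE1 had 0.049. Among these markers the lowest p-values with the block were those of the replication helicase subunits MCM4 and MCM2, named after their values were seen. MCM4 had −0.32 and MCM2 −0.29 (adjusted p = 1 for both from limma without the block, and 0.0911 and 0.0986 with it), and both had −0.15 without mock replicate 4. After cyclic loess the medians of the 7 lists lay between −0.04 and 0.047, and without mock replicate 4 between −0.064 and 0.077. Without replicate 4 of both groups they ran from −0.12 for S phase markers and −0.1 for reductase partners to 0.0035, with −0.079 for purine synthesis.

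**Figure D5:**
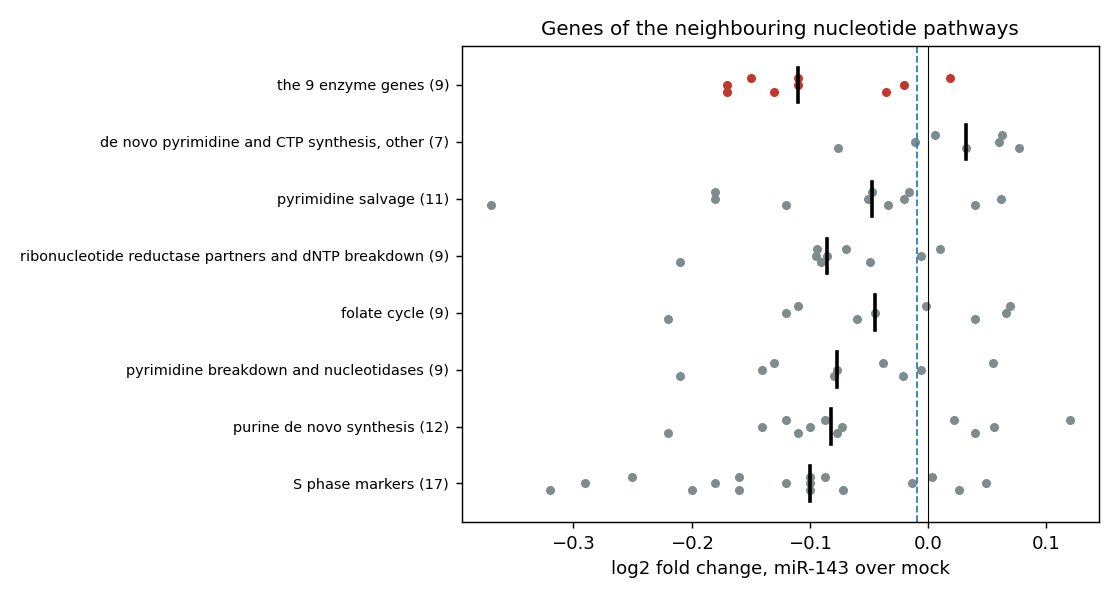
Change on the log2 scale, miR-143 over mock, of the 9 enzyme genes (red) and for the measured genes of 7 related lists (grey, number in brackets), with the median of each as a black bar and the median of all genes, −0.0091, as a dashed line. The medians run from −0.11 for the 9 enzyme genes to 0.032 for the other CTP and nucleoside diphosphate genes, and DCTD is the point farthest left, at −0.37. The lists differ in level, and the dashed line is not matched to it.

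Profiles over the arrays were compared with those of the 9875 other genes above the median level, as a description. Over the 8 arrays the genes most like TYMS were CAPZA1, SVBP and TMF1 (Pearson r = 0.994 for each), those most like RRM2 were AGO1, EIF3H and RAN (r = 0.998, 0.995 and 0.995), and those most like CAD were SMPD1, AFAP1-AS1 and PI4KA (r = 0.995, 0.994 and 0.994). Over the 6 arrays without replicate 4 the same genes had r = 0.96, 0.962 and 0.976 with TYMS, 0.995, 0.993 and 0.967 with RRM2, and 0.958, 0.954 and 0.964 with CAD. All of them share the high replicate 4 arrays with the enzyme genes. In likeness over the 6 arrays, among the 9875 genes, those named for TYMS ranked 69, 62 and 21. Those named for RRM2 ranked 1, 3 and 55, and those named for CAD 127, 148 and 89, in the same order.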

How the data were processed

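RNA from 4 miR-143 and 4 mock cultures was read on 8 single-colour arrays. The authors deposited log2 values made with RMA in the affy package, per the labels, without stated versions. Fold changes were taken within a probe set, or from the mean of a gene's probe sets in an alternative. Levels of different probe sets were set beside each other for the brightest probe set, the markers, the level classes and the gaps of DUT. The deposited arrays did not share a single distribution, with upper quartiles of 8.01 to 8.21 and maxima of 14.75 to 15.43. Arrays give no counts, so their number limits the precision. Probe sets of a single gene in the platform annotation were kept (41091 of 54675, with symbols updated through RefSeq tables of GRCh38.p14), and the brightest over all arrays stood for a gene (19752). Groups were compared with limma 3.58.1 (two-sided, R 4.3.3) and Benjamini-Hochberg adjustment over all genes or all probe sets, with 0.05 as the threshold and no block, since the methods name none. The script was tested on simulated data. Python 3.11.15 with pandas 2.3.3 and numpy 2.4.6 served for tables and figures.

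Deviations from the group mean correlated across genes, between the arrays of each number, at 0.11, 0.17, 0.58 and 0.81, just over the limit of 0.1 set for pairs, and over probe sets at 0.08, 0.11, 0.56 and 0.77, so results with the block are given for the 9 genes and for some list genes. Number 2 with miR-143 correlated more with mock number 1 (0.54) than with its own, and number 1 more with mock number 3 (0.25). After cyclic loess numbers 1 and 2 had 0.07 and 0.02. The members and lists were chosen with earlier results of these data known. Named genes were all 9 members, the lower and the higher gene of lowest p in each list, and the 3 genes most like TYMS, RRM2 and CAD. Alternatives were the block, arrays left out, cyclic loess, array weights, the mean of a gene's probe sets and filters on level and on interquartile range (above 0.25).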

Additional observations from a re-analysis of the deposited data

Results flagged for a closer look

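Of 44 groups of 4 arrays (22 probe sets in 2 groups), 2 held an array far from the others by Dixon's test, where chance gives about 1 in 20. The UMPS probe set 239800_at lay at 7.45 in miR-143 replicate 4 where the rest of its group had 7.16 to 7.18. The dim TYMS probe set 217684_at lay at 7.08 in miR-143 replicate 3 against 7.19 to 7.21. Both lie near the array medians.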

How the results depend on the processing

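The count of called genes among the 9 was 0 under all 21 alternatives, and the lowest adjusted p of any member was 0.144. With the replicate block 1 of 22 probe sets was called, that of DUT, and with pairs or arrays left out 0. The median of the 9 genes ran from −0.19 to −0.006 with an array left out and from −0.12 to −0.1 with the block and a pair left out. UMPS, RRM2, DUT, TYMS and TK1 stayed negative under every alternative that kept them, though an array left out took RRM2 to −0.0025, DUT to −0.062, TYMS to −0.058 and TK1 to −0.031. The mean of a gene's probe sets took UMPS to −0.049. The sign turned for CAD with an array left out (−0.26 to 0.11), with the block and a pair left out (−0.13 to 0.07, with 0.026 without replicate 3) and after cyclic loess without or with the block (0.012), for DHODH with an array (−0.12 to 0.024) or a pair left out (−0.089 to 0.059), for CTPS1 with an array (−0.14 to 0.14) or a pair left out (−0.032 to 0.086, with −0.0044 without replicate 1) and without replicate 4 of both groups (−0.032), and for RRM1 with an array left out (−0.17 to 0.0011). The cause was not tested. The analyses without replicate 4 of both groups and those combining the block with cyclic loess or probe set means were chosen after seeing the data. The filter on interquartile range kept only CAD. Dim probe sets limit what can be said of DHODH.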
